A study of Mus musculus with 13 samples.

Results

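The 10 genes described here encode proteins of the secondary and tertiary granules of mouse neutrophils or markers of the cells that carry those granules: Ltf, Camp, Ngp, Lcn2, Chil3, Mmp8, Mmp9, Cd177, Lyz2 and Ly6g. They were chosen by name and not by a cut on a measured value, but with earlier results of these data known. All 10 were found among the 55536 genes of the poly(A) tables. Poly(A)-selected RNA-seq covered neutrophils freshly taken from the bone marrow of wild-type (WT) mice and kept in HBSS, a salt buffer, at 37 °C. One group was given RNase A outside the cells for 10 min (exRNaseA, n = 2 libraries) and another a mock treatment (mock, n = 2 libraries). The comparison asks whether digesting RNA outside the cell changes the cell's own mRNA. A second assay sequenced small RNA after capture on beads of wheat germ agglutinin (WGA), a lectin that binds sialic acid and N-acetylglucosamine, or without capture (input, cut from a gel under 300 nt), with 1 library of each from neutrophils of WT mice. It also covered 7 libraries of HOXB8 cells labelled with Ac4ManNAz, Gal and GalNAc. HOXB8 cells are a mouse myeloid progenitor line, grown with estradiol and SCF and differentiated by removing estradiol. Undifferentiated and differentiated cells each had an input, a WGA and a biotin library, the last purified by biotin. Another biotin library of differentiated cells was digested with the enzyme PNGase F. The labels do not give the animals, their age or how the neutrophils were purified. They call the 2 libraries of a group biological replicates, so that a p-value rests on the spread between those 2, which may be technical.

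Neutrophil granules are made in sequence as the cell matures in the marrow. Primary granules, filled with myeloperoxidase and serine proteases, come first in promyelocytes, then secondary (specific) granules in myelocytes and tertiary (gelatinase) granules in later cells. Each protein goes mainly to the granule being formed when its gene is active, so the mRNAs also mark the stage of maturation. C/EBP epsilon is the transcription factor known for switching on the secondary granule genes.

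The exRNaseA libraries held 20661683 and 22870322 expected counts and the mock libraries 23722494 and 20798960. The neutrophil label was checked against markers. The 5 neutrophil markers (S100a8, S100a9, Csf3r, Cxcr2 and Retnlg) summed to 241056 and 226983 TPM (transcript abundance as RSEM gives it, corrected for transcript length) in exRNaseA libraries, against 238616 and 240035 TPM in mock libraries. Most of these sums came from S100a9 and S100a8, with means of 122860 and 96743 TPM. Retnlg had a mean of 15779 TPM, Csf3r 722 TPM and Cxcr2 567 TPM. The markers of other cells summed to less. Single ones such as Hbb-bs (mean 1698 TPM), Hba-a2 (1537 TPM) and Ighm (1411 TPM) nevertheless lay above Csf3r and Cxcr2. The 7 erythroid markers had 4695 and 4682 TPM in exRNaseA libraries and 4631 and 4489 TPM in mock libraries, and the 7 B cell markers lay between 1790 and 1802 TPM in all 4. The 10 monocyte and macrophage markers had 1066 and 1046 TPM in exRNaseA libraries and 1062 and 1049 TPM in mock libraries. Most of that was Ly6c2 (mean 965 TPM), which neutrophils also express. The part of Lyz2, which macrophages also express, that came from monocytes and macrophages was not tested. The 7 eosinophil and basophil markers had 608 and 589 TPM in exRNaseA libraries, against 623 and 616 TPM in mock libraries. The 6 T and NK cell markers had 44.4 and 43.8 TPM in exRNaseA libraries and 47.5 and 46.3 TPM in mock libraries, and the 5 stem and progenitor markers had 119 and 127 TPM in exRNaseA libraries and 116 and 112 TPM in mock libraries. In bulk RNA, fewer cells of a type and less RNA per cell cannot be told apart.

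The granule genes were among the most abundant mRNAs of these cells. By mean TPM 4 of the 10 were among the 10 highest of all genes, 5 among the 20 highest and 8 among the 100 highest. Together they held 5.83% and 5.90% of all TPM in exRNaseA libraries and 5.96% and 5.89% in mock libraries, with overlapping groups. The 5 secondary granule genes made up most of it, with 44568 and 45183 TPM in exRNaseA libraries and 45632 and 45201 TPM in mock libraries. From the highest to the lowest gene the mean level spanned 51.5-fold, while a single gene's highest library exceeded its lowest by 1.01-fold to 1.08-fold.

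Ngp (ENSMUSG00000032484.8; chromosome 9, 110419808 to 110423012, plus strand, GRCm38.p6 in RefSeq), neutrophilic granule protein, a cystatin-related protein of secondary granules, was the highest of the 10 and the third highest of all genes. It had 21623 and 22602 TPM in exRNaseA libraries, against 22636 and 22119 TPM in mock libraries. On this scale the second exRNaseA library lay between the 2 mock libraries.

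Ltf (ENSMUSG00000032496.7; chromosome 9, 111019292 to 111042766, plus strand), the iron-binding lactoferrin that defines secondary granules, ranked 6 of all genes. It had 8347 and 8170 TPM in exRNaseA libraries and 8314 and 8407 TPM in mock libraries. The first exRNaseA library lay between the mock libraries and the second below both.

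The promoters of these 2 genes are shown because they are the most abundant transcripts of the secondary granule group and the genes, with Chil3, that also gave short sequences in the small RNA libraries. The sequences are from RefSeq (GRCm38.p6), from 250 bases before the annotated start to 50 after it, on the strand of the gene, 5′ to 3′, and capitals mark matches to the C/EBP half-site pair TTGCNNAA on either strand.
Ngp promoter, chr9:110419558-110419857, plus strand: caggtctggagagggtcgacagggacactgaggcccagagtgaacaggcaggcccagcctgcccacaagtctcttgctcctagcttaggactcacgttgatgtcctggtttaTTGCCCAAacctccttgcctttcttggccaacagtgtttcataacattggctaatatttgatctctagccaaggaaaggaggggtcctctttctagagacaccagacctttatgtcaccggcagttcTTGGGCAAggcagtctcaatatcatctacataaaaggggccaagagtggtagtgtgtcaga
Ltf promoter, chr9:111019042-111019341, plus strand: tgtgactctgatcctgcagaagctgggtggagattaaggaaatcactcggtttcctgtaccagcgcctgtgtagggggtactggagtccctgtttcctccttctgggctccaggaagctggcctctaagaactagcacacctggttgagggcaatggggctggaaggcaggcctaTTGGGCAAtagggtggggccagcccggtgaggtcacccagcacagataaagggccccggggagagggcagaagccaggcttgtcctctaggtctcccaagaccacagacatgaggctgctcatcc
In Ngp the 2 matches began 138 and 11 bases before the start, and in Ltf the match began 75 bases before it. RefSeq promoters were found for 9 of the 10 genes, all but Mmp9, and Ly6g has 2. The letters TTGCNNAA stood in at least 1 promoter of Ltf, Ngp, Lcn2, Mmp8 and Ly6g (5 of 9 genes), against 12.2% of 27025 genes with a promoter. Counted by promoter it was 5 of 10, since the other Ly6g promoter has no match, against 10.8% of 32851 promoters of the same length. The matches of the other genes began 19 bases before the start in Mmp8, 216 in Lcn2 and 232 in Ly6g. The purine-rich core bound by PU.1, GAGGAA, stood in 5 of 9 genes (Ltf, Lcn2, Mmp8, Cd177 and Ly6g), against 31.3% of all genes with a promoter. The RUNX core TGTGGT stood in 2 of 9 genes (Ltf and Lyz2), against 18.9%. Both strands were read, and overlaps between matches of different motifs were not removed. A match is a run of letters and not a measured binding site.

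Lcn2 (ENSMUSG00000026822.14; chromosome 2, 32384637 to 32387739, minus strand), lipocalin 2, which binds bacterial siderophores, had 8044 and 8115 TPM in exRNaseA libraries and 8156 and 8147 TPM in mock libraries. Both exRNaseA values lay below both mock values. Camp (ENSMUSG00000038357.10; chromosome 9, 109847377 to 109849456, minus strand), the cathelicidin antimicrobial peptide precursor, had 3876 and 3822 TPM in exRNaseA libraries and 3941 and 3909 TPM in mock libraries. Its groups did not overlap either. Chil3 (ENSMUSG00000040809.10; chromosome 3, 106147554 to 106167564, minus strand), a chitinase-like lectin without enzymatic activity, had 2678 and 2473 TPM in exRNaseA libraries and 2585 and 2620 TPM in mock libraries. The 2 exRNaseA values of Chil3 lay on either side of both mock values, and it varied most of the 10 genes, by 1.08-fold.

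Of the tertiary granule genes, Mmp8 (ENSMUSG00000005800.3; chromosome 9, 7558429 to 7568486, plus strand), neutrophil collagenase, which is also stored in secondary granules, had 2531 and 2634 TPM in exRNaseA libraries and 2645 and 2565 TPM in mock libraries, and the groups overlapped. Mmp9 (ENSMUSG00000017737.2; chromosome 2, 164940326 to 164955850), the gelatinase after which tertiary granules are named, had 1683 and 1726 TPM in exRNaseA libraries and 1653 and 1649 TPM in mock libraries. It was the one gene of the 10 with both exRNaseA values above both mock values. Cd177 (ENSMUSG00000052212.6; chromosome 7, 24743983 to 24760334, minus strand), a GPI-anchored neutrophil surface protein also stored in granule membranes, had 800.2 and 812 TPM in exRNaseA libraries and 807 and 793 TPM in mock libraries, which overlapped.

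Lyz2 (ENSMUSG00000069516.8; chromosome 10, 117277541 to 117282272, minus strand), lysozyme M, which cleaves bacterial cell walls and is found in several kinds of granule and in macrophages, had 8267 and 8175 TPM in exRNaseA libraries and 8389 and 8282 TPM in mock libraries. Its groups did not overlap. Its value is partly an estimate, because RSEM divides reads between near-identical genes. The expected counts of Lyz2 were not whole in any library, while its copy Lyz1 had a mean of 3.53 TPM. Ly6g (ENSMUSG00000022582.4; chromosome 15, 75155261 to 75159128, plus strand), the GPI-anchored surface protein used to sort mouse neutrophils, was the lowest of the 10 and ranked 279 of all genes. It had 420.2 and 425 TPM in exRNaseA libraries, against 447 and 436 TPM in mock libraries, with no overlap. Ly6g belongs to a family of similar genes, and its expected counts were whole in all 4 libraries.

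**Figure D1:**
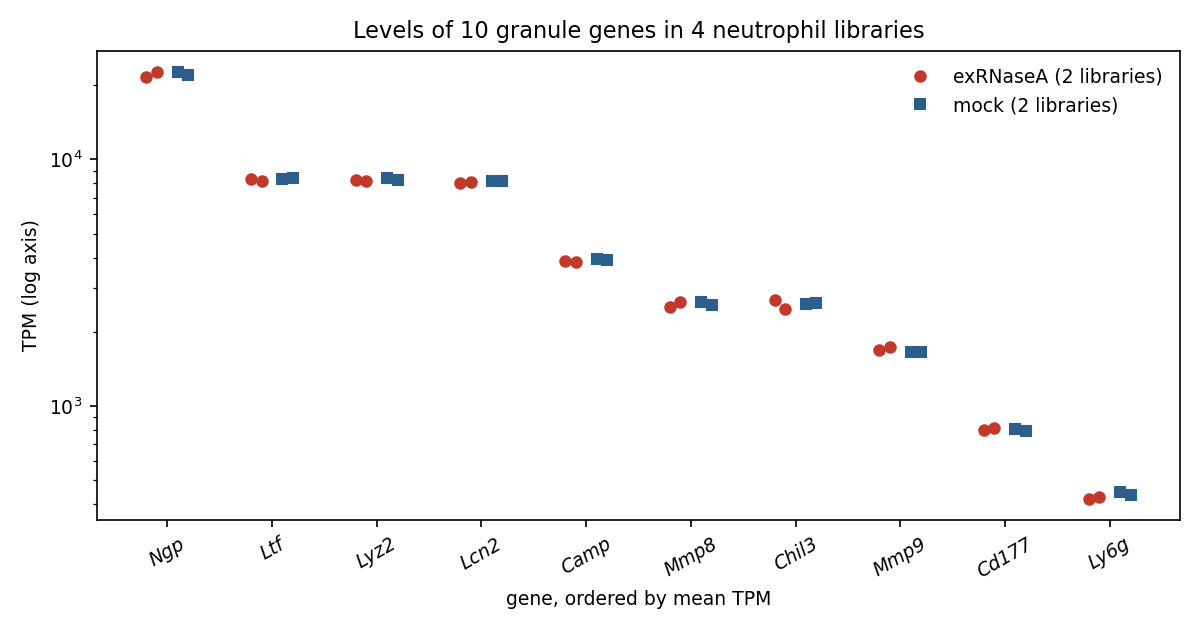
TPM on a log axis of each of the 10 granule genes in the 2 exRNaseA libraries (circles, left) and the 2 mock libraries (squares, right), with genes ordered by mean TPM. The libraries of a gene lie almost on top of each other, while the genes span 51.5-fold, with Ngp the highest and Ly6g the lowest.

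By mean TPM the order was Ngp, Ltf, Lyz2, Lcn2, Camp, Mmp8, Chil3, Mmp9, Cd177 and Ly6g. For 7 of the 9 neighbouring pairs in this order the ranges over the 4 libraries did not overlap. Those of Ltf and Lyz2 overlapped, as did those of Mmp8 and Chil3, so the order within these pairs is not fixed by the data. The Mmp8 to Mmp9 ratio of TPM was 1.50 and 1.53 in exRNaseA libraries and 1.60 and 1.56 in mock libraries, which did not overlap. The Ngp to Ltf ratio was 2.59 and 2.77 in exRNaseA libraries and 2.72 and 2.63 in mock libraries, which did. The 5 secondary granule genes had 39.3 and 39.6 times the TPM of 15 primary granule genes in exRNaseA libraries, against 40.8 and 40.8 times in mock libraries. The primary granule genes summed to 1134 and 1140.2 TPM in exRNaseA libraries and 1119 and 1108 TPM in mock libraries. Their list includes Serpinb1a, which encodes a protease inhibitor and had a mean of 212 TPM. The 3 tertiary granule genes summed to 5014 and 5173 TPM in exRNaseA libraries and 5105 and 5008 TPM in mock libraries, an overlap.

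For each granule gene the other gene nearest in level was sought by the distance between log2(TPM + 1) values over the 4 libraries, a measure set mostly by level. The nearest to Ltf (0.05), Lyz2 (0.06) and Lcn2 (0.09) was Tmsb4x. The nearest to Cd177 was Msrb1 (0.03), to Ly6g Plek (0.06), to Mmp9 Hbb-bs (0.07), to Chil3 Anxa1 (0.07), to Mmp8 mt-Cytb (0.08) and to Camp Gm28437 (0.15). Ngp had no near neighbour, and the closest gene, Retnlg, was 0.99 away with a mean of 15779 TPM.

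Of the 5 secondary granule genes 3 share a stretch of chromosome 9. Camp, Ngp and Ltf lie within 1195390 bp, with 570351 bp between Camp and Ngp and 596279 bp between Ngp and Ltf. The 28 other protein-coding genes wholly inside had a median of the mean TPM of 1.26, and the highest of them, Setd2, a histone methyltransferase, had 90.7 TPM. Of those 28 genes 16 were tested for the response to exRNaseA, with a median log2 change of 0.01 and 7 below 0. The mean levels of the 3 granule genes, 3887 TPM or more, stood far above those of the genes around them.

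For the comparison of groups, CPM (counts relative to the library's total, scaled with TMM factors) were tested across 14184 genes with edgeR's quasi-likelihood test. The granule genes of exRNaseA cells differed little from those of mock cells. None of the 10 passed an adjusted p of 0.05, where 0.0917% of all tested genes did in either direction and 0.0705% in the lower direction. In 9 of them both exRNaseA values lay below both mock values, and 9 had a log2 change (exRNaseA over mock) below 0. Over all tested genes 18.0% had both exRNaseA values below both mock values and 50.1% had a log2 change below 0. Before adjustment 8 of the 10 had p under 0.05 in the lower direction, against 3.07% of all genes. DESeq2 also called 0 of the 10, with 6 at an unadjusted p under 0.05. The shares among other highly expressed genes lay between those of the 10 and those of all genes. These were the 880 other genes at or above the mean CPM of the lowest granule gene, Ly6g. Of them 31.7% had both exRNaseA values below both mock values, and 60.6% had a log2 change below 0. An unadjusted edgeR p under 0.05 in the lower direction was found for 6.82%. Ly6g had a mean of 233 CPM in mock libraries, while the next lowest granule gene, Cd177, had 1427 CPM. The 880 genes were therefore not matched in level to the granule genes above Ly6g. The median log2 change was -0.05 over the granule genes, -0.01 over those 880 genes and -0.00 over all tested genes, whose median absolute log2 change was 0.07.

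**Figure D2:**
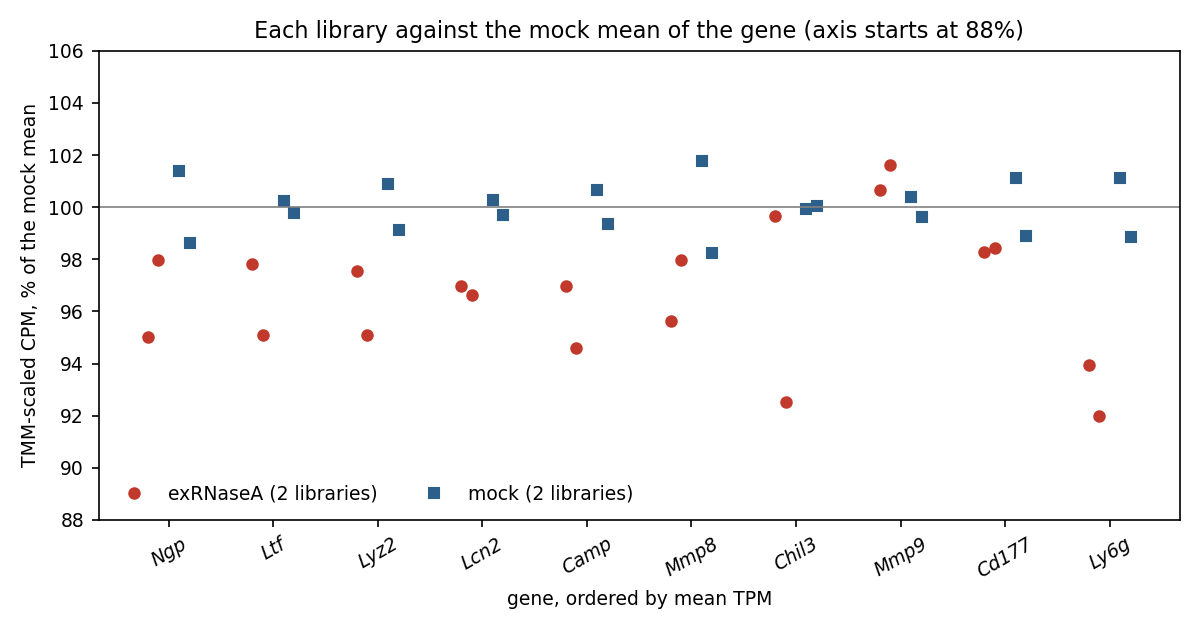
TMM-scaled CPM of each granule gene in each library as a percentage of the gene's mock mean, on an axis that starts at 88%, with the 2 exRNaseA libraries (circles) left of the 2 mock libraries (squares). Both exRNaseA circles lie below both mock squares for 9 genes and above them for Mmp9, and the 2 exRNaseA libraries of Chil3 lie farthest apart.

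The secondary granule genes had log2 changes close to each other. Ltf had 9819 and 9546 CPM in exRNaseA libraries and 10061 and 10014 CPM in mock libraries, a log2 change of -0.05 ± 0.02 (SE; edgeR adjusted p = 0.609). Ngp had 15513 and 15991 CPM in exRNaseA libraries, against 16551 and 16096 CPM in mock libraries (-0.05 ± 0.02, edgeR adjusted p = 0.628). For Ngp the lower mock library lay nearer to the higher exRNaseA library than to the other mock library. Camp had 1521 and 1484 CPM in exRNaseA libraries and 1579 and 1558 CPM in mock libraries, a log2 change of -0.06 ± 0.02 (SE; edgeR adjusted p = 0.628). Lcn2 had 4042 and 4027 CPM in exRNaseA libraries and 4179 and 4155 CPM in mock libraries (-0.05 ± 0.02, edgeR adjusted p = 0.707). Chil3 had 2405 and 2233 CPM in exRNaseA libraries and 2412 and 2415 CPM in mock libraries (-0.06 ± 0.03, edgeR adjusted p = 0.756). Its first exRNaseA library was nearly level with the mock libraries and the second lay well below them.

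The 3 genes grouped here under tertiary granules were less alike, and Mmp8 had a log2 change like those of the secondary granule genes. Mmp8 had 3949 and 4045 CPM in exRNaseA libraries, against 4201 and 4056 CPM in mock libraries (log2 change -0.05 ± 0.02 SE, edgeR adjusted p = 0.753), so that the second libraries of the groups nearly met. Mmp9 had 3439 and 3472 CPM in exRNaseA libraries and 3429 and 3403 CPM in mock libraries, a log2 change of 0.02 with a 95% interval of -0.02 to 0.05 (edgeR adjusted p = 0.929). Cd177 had 1403 and 1405 CPM in exRNaseA libraries and 1443 and 1411 CPM in mock libraries, a log2 change of -0.02 with a 95% interval of -0.07 to 0.02 (edgeR adjusted p = 0.908). For both Mmp9 and Cd177 the interval spanned 0.

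Lyz2 and Ly6g stood beside the secondary granule genes. Lyz2 had 6476 and 6313 CPM in exRNaseA libraries and 6696 and 6579 CPM in mock libraries (log2 change -0.05 ± 0.02 SE, edgeR adjusted p = 0.628). Ly6g had 219 and 214 CPM in exRNaseA libraries, against 236 and 230.2 CPM in mock libraries. Its log2 change of -0.11 (95% interval -0.17 to -0.04, edgeR adjusted p = 0.419) was the farthest from 0 of the 10 and stands for a level 7.08% lower in exRNaseA cells. No 95% interval of the 10 genes reached beyond 0.168 on the log2 scale in either direction. In the Ly6 and uPAR family, Ly6c2, a surface protein of monocytes and neutrophils, had a log2 change of -0.05 and Plaur, the urokinase receptor, -0.03. Of 9 tested genes of that family, Ly6g and Cd177 included, 0 passed the adjusted test (1 at an unadjusted p under 0.05, Ly6g) and 6 had a log2 change below 0.

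The number past the threshold depended on single libraries and on the filter. With the first exRNaseA library left out, so that the lone second one is assumed to vary like the others, 3 of the 10 passed the adjusted test with edgeR: Ltf (log2 change -0.07, adjusted p = 3.3e-04), Chil3 (-0.11, adjusted p = 3.9e-04) and Lyz2 (-0.07, adjusted p = 0.0039). With the second exRNaseA library left out, 1 passed, Ngp (-0.07, edgeR adjusted p = 0.0068). Ngp also passed where no filter removed low genes (edgeR adjusted p = 0.0200). Without either mock library 0 of the 10 passed. The second exRNaseA library also had less of the most abundant neutrophil transcripts: S100a8 and S100a9, which form calprotectin, held 22.4% and 21.0% of all TPM in exRNaseA libraries, against 22.1% and 22.3% in mock libraries. Their part in the result was not tested.

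The size of the difference also depended on the scale. On TPM, which divides by the sum over all transcripts, 4 of the 10 had both exRNaseA values below both mock values (Camp, Lcn2, Lyz2 and Ly6g), 1 had both above (Mmp9) and 5 overlapped, where 11.3% of all tested genes had both below. The median log2 change of the 10 genes was -0.02 in limma on log2(TPM + 1), against 0.03 over all genes tested on that scale, and 0 of the 10 had an unadjusted p under 0.05. On counts scaled by their total it was -0.03, against 0.02 over all genes, and 2 had an unadjusted p under 0.05. On these 3 scales the 10 genes had a lower median than all genes tested. For TPM and total counts no share or median was taken over the 880 other highly expressed genes. Cd177 changed side, with a log2 change of 0.01 on TPM.

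**Figure D3:**
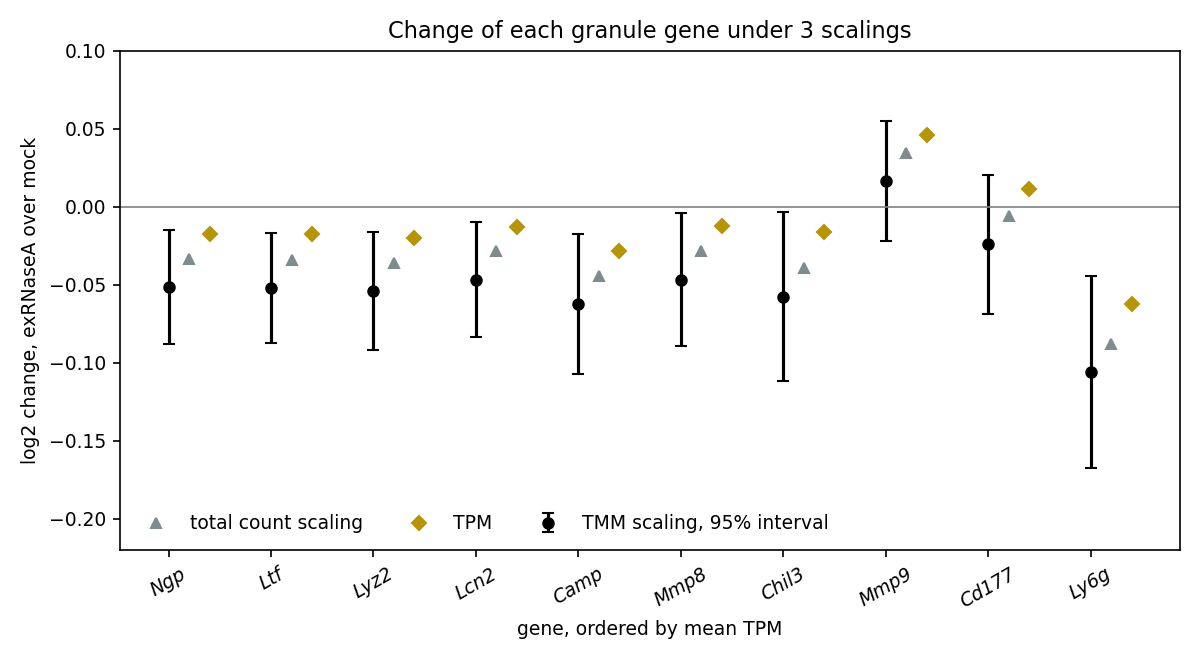
Log2 change (exRNaseA over mock) of each granule gene with TMM scaling (circles, with the 95% interval of edgeR), with total count scaling (triangles) and on log2(TPM + 1) in limma (diamonds). The triangles and diamonds lie above the circles for every gene, Mmp9 lies above 0 on all 3 scales, and Cd177 crosses 0 on TPM.

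Other genes of the same granules were set beside the 10. Of 28 further genes of specific and gelatinase granules 23 were tested, and 0 passed the adjusted test (2 at an unadjusted p under 0.05), while 18 had a log2 change below 0, 7 had both exRNaseA values below both mock values and the median was -0.02. Olfm4, olfactomedin 4, a secondary granule glycoprotein of a subset of neutrophils, had 673 and 651 CPM in exRNaseA libraries and 689 and 699.6 CPM in mock libraries (log2 change -0.07, edgeR adjusted p = 0.628). The 3 most abundant were Pglyrp1, a peptidoglycan recognition protein (1176 TPM, log2 change -0.05), Hp, haptoglobin (942 TPM, -0.05), and Itgb2, the beta chain of the leukocyte integrins (737 TPM, -0.02).

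Primary granule genes, the products of an earlier stage, gave 0 of 14 tested past the threshold (2 at an unadjusted p under 0.05), 9 below 0, 3 with both exRNaseA values below both mock values and a median log2 change of -0.02. Mpo, myeloperoxidase, had 407 and 405 CPM in exRNaseA libraries, against 390.4 and 400.3 CPM in mock libraries (0.04, edgeR adjusted p = 0.867). It lay on the other side from the secondary granule genes. Serpinb1a, an inhibitor of neutrophil serine proteases, was counted in this list and again among the protease inhibitors below. It had a log2 change of -0.06, and Cd63, a tetraspanin of the primary granule membrane, had -0.03. Prss57, a serine protease with a mean of 6.07 TPM, had 7.76 and 6.48 CPM in exRNaseA libraries and 8.37 and 9.78 CPM in mock libraries (-0.35, edgeR adjusted p = 0.708).

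Genes of late neutrophils had log2 changes in the same range. Of 20 tested 0 passed (6 at an unadjusted p under 0.05), 18 had a log2 change below 0, 10 had both exRNaseA values below both mock values, and the median was -0.05. S100a9 had 27471 and 25776 CPM in exRNaseA libraries, against 28116 and 28270 CPM in mock libraries (-0.08, edgeR adjusted p = 0.288). Retnlg, a resistin-like secreted protein of neutrophils, had a log2 change of -0.05 with both exRNaseA values below both mock values. S100a8 had -0.05 with overlapping groups. No test compared these lists with the 10 granule genes.

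Transcription factors of granulocyte development, which switch the granule genes on and off, had values on both sides of 0. Of 11 tested 0 passed (1 at an unadjusted p under 0.05), 4 were below 0, 2 had both exRNaseA values below both mock values, and the median log2 change was 0.03. Spi1, which encodes PU.1, had 223 and 229 CPM in exRNaseA libraries and 222 and 217 CPM in mock libraries (0.04, edgeR adjusted p = 0.878). Cebpb, the C/EBP factor of emergency granulopoiesis, had 97.4 and 115 CPM in exRNaseA libraries and 99.3 and 94.996 CPM in mock libraries (0.13, edgeR adjusted p = 0.731), with overlapping groups, and Stat3, which acts downstream of the G-CSF receptor, had 0.01. Cebpe, which encodes C/EBP epsilon, had a log2 change of 0.05 at a mean of 85.1 TPM.

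Inhibitors of granule proteases gave 0 of 10 tested past the threshold (1 at an unadjusted p under 0.05), 9 below 0, 2 with both exRNaseA values below both mock values and a median log2 change of -0.06. Slpi, secretory leukocyte protease inhibitor, had a log2 change of -0.00 and Timp2, an inhibitor of matrix metalloproteinases, 0.00. Cst3, cystatin C, had 75.9 and 77.8 CPM in exRNaseA libraries and 84.5 and 80.2 CPM in mock libraries (-0.10, edgeR adjusted p = 0.731).

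In the lipocalin, transferrin, chitinase-like and matrix metalloproteinase families the tested genes other than the 10 all had lower mean levels than the granule genes of the same family. Beside Lcn2 the only other lipocalin tested was Orm1, at 54.4 TPM. Beside Ltf, the iron carrier gene Trf had 78.1 TPM. The transferrin receptor gene Tfrc, listed with this family as the receptor, had 134 TPM. Of the chitinase-like genes Chil1 had 455 TPM (log2 change -0.04) and Chil5 37.9 TPM (-0.17). Of 9 tested matrix metalloproteinase genes 0 passed (1 at an unadjusted p under 0.05, Mmp8) and 3 were below 0, and Mmp25, a membrane-anchored enzyme of neutrophils, had 138 TPM (0.03). Stfa2l1, a stefin of the cystatin superfamily, had 759 TPM (-0.06).

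In the small RNA table short sequences of 3 of the 10 genes are listed. The table holds 18385 unique sequences, and 92.1% of them had over 100 reads summed over the 9 libraries, so that it appears to be a list of sequences above such a limit. Of the sequences, 3226 are in the class placed on the genome outside known small RNAs, and 1690 of these lay wholly inside a RefSeq protein-coding gene. In 924 the direction was that of a gene, in 453 the opposite, with 23 counted in both, and 336 lay only in genes whose strand was not known. The granule genes held 9, all in the direction of the gene: 4 in Ngp, 4 in Ltf and 1 in Chil3. No sequence of the other 7 genes is listed, but one with fewer reads may be missing from the table. Of the 100 protein-coding genes with the highest TPM, 26 had a listed sequence, S100a8 had 0 and S100a9 had 3.

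All 9 sequences of the granule genes were in the table through the neutrophil WGA library. Each had at least 102 reads over the 9 libraries, at most 6 of them outside that library, and 0 of the 9 would pass 100 reads without it. Under such a limit, that these sequences were higher in that library than in the others was fixed by their being listed. The values that follow describe them and do not test a difference between libraries.

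The sequences are shown as deposited, 5′ to 3′, in DNA letters, with the authors' positions on mm10. Capitals mark the stretch that all nested sequences of a site share, where a site has more than 1.
Ngp, chr9:110422817-110422839, plus strand: tgaatatTTCAATGATGTGTCCC
Ngp, chr9:110422821-110422839, plus strand: tatTTCAATGATGTGTCCC
Ngp, chr9:110422823-110422839, plus strand: tTTCAATGATGTGTCCC
Ngp, chr9:110422824-110422839, plus strand: TTCAATGATGTGTCCC
Ltf, chr9:111038930-111038955, plus strand: tgctgtagTGTCTCGGACAGACAAGG
Ltf, chr9:111038935-111038955, plus strand: tagTGTCTCGGACAGACAAGG
Ltf, chr9:111038938-111038955, plus strand: TGTCTCGGACAGACAAGG
Ltf, chr9:111026031-111026054, plus strand: gaggagaagcgcaagtgtgatcag
Chil3, chr3:106149791-106149834, minus strand: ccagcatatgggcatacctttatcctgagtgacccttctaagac
All 4 sequences of Ngp ended at the same base, 173 bases before the annotated end of the gene, and differed in where they began. The 3 nested sequences of Ltf likewise shared their last base and had 3 different first bases. The sequences were 16 to 44 bases long, and whether the shorter ones match other places in the genome was not checked here. Whether they lie in exons was not read from an annotation.

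Counted in RPM (reads relative to all reads of the library), the 4 Ngp sequences summed to 229.6 RPM (2278 reads) in the neutrophil WGA library, against 0.965 RPM (3 reads) in the neutrophil input, a ratio of 238. With sequences of 20 or more bases only, and the input at a floor of 3 reads, the ratio was 44.1. The 4 Ltf sequences summed to 118 RPM (1166 reads) in the WGA library and 3.86 RPM (12 reads) in the input, a ratio of 30.5. The Chil3 sequence had 26.1 RPM (259 reads) in the WGA library and 1.29 RPM (4 reads) in the input, a ratio of 20.3. Each group was a single library, so the spread between replicates is unknown.

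The most frequent sequence was the Ngp sequence of 17 bases, with 1235 reads in the neutrophil WGA library and 2 in the input. The 23-base, 19-base and 16-base sequences of the same site had 422, 374 and 247 reads in the WGA library, and 0, 0 and 1 in the input. At the nested Ltf site the 26-base, 21-base and 18-base sequences had 309, 382 and 379 reads in the WGA library and 1, 0 and 5 in the input. The Ltf sequence at the other site, of 24 bases, had 96 reads in the WGA library and 6 in the input. The short sequences of each nested site thus occurred in several lengths, each with 247 reads or more in the WGA library.

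By RPM in the neutrophil WGA library Ngp ranked 6, Ltf 12 and Chil3 66 of the 361 protein-coding genes with a listed sequence read there. The highest gene was Prg2 (688 RPM in the WGA library, 70.7 RPM in the input), which encodes eosinophil major basic protein. Together the granule gene sequences had 373 RPM in the WGA library and 6.11 RPM in the input, and they made up 4.44% of the WGA library's RPM of listed sequences inside protein-coding genes. The neutrophil WGA library held 9922659 reads and the input 3110323.

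In the 7 HOXB8 libraries, with 42488121 reads in all, the 9 sequences had 5 reads. In the input of differentiated HOXB8 cells Ngp had 3 reads and Ltf 1, and in the biotin library of undifferentiated HOXB8 cells Chil3 had 1. The 2 HOXB8 WGA libraries had 0 reads of all 9 sequences, where a count of 0 allows up to 0.543 RPM in undifferentiated and 0.351 RPM in differentiated cells (3 reads). The poly(A) libraries are all of neutrophils, so poly(A) levels of the granule genes in HOXB8 cells were not measured. The counts describe sequences listed through the neutrophil WGA library and do not compare the cells.

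**Figure D4:**
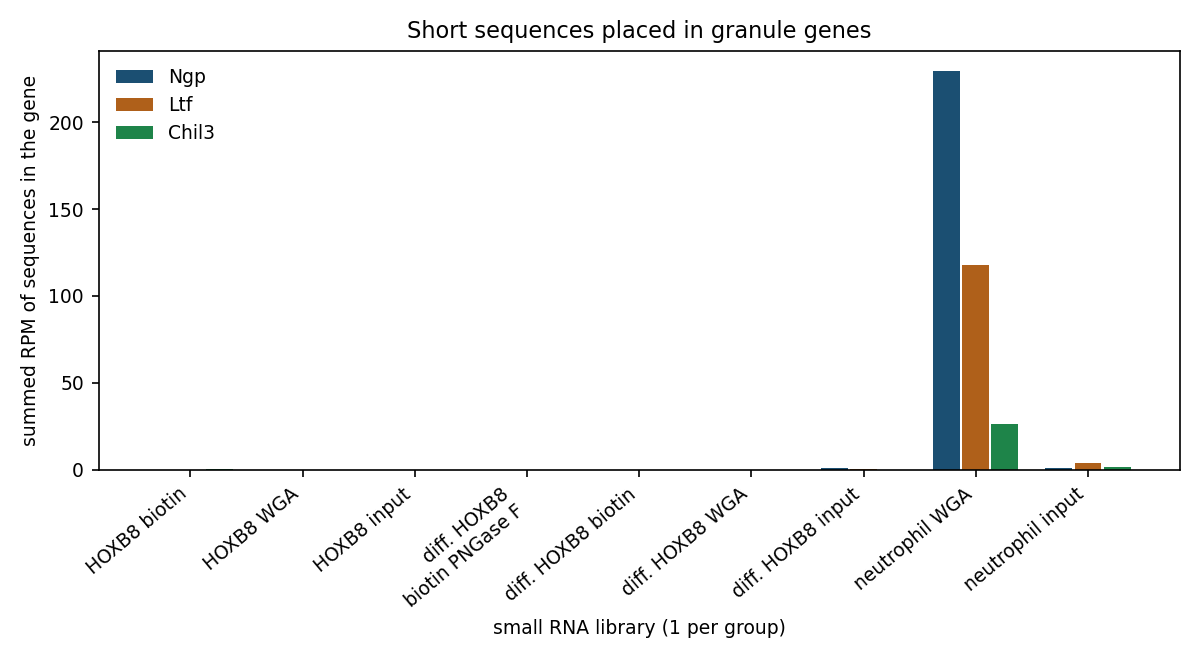
Summed RPM of the short sequences in Ngp, Ltf and Chil3 in each of the 9 small RNA libraries, 1 library per bar group, with captured libraries left of the input of the same cells. The neutrophil WGA library had 229.6, 118 and 26.1 RPM, and no other library reaches 4 RPM for any of the 3 genes, as follows from the sequences being listed through that library.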

How the data were processed

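The submitters' processing notes name STAR 2.4.2a, RSEM 1.3.3 and the mm10 build for the poly(A) libraries. The authors deposited RSEM's expected counts per gene, estimated from aligned reads, with TPM and FPKM, per the file headers. The authors deposited small RNA values as RPM of unique sequences. For that table the aligner and filters are not given in the sources used here. Groups were taken from the treatment field, because the RNase text also stands in the mock labels.

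After rounding to whole counts, edgeR 4.0.16 kept 14184 genes (filterByExpr), scaled them with TMM and compared 2 exRNaseA with 2 mock libraries by quasi-likelihood, with Benjamini-Hochberg adjustment over all genes at 0.05. Alternatives were DESeq2 1.42.0, limma 3.58.1 on log2 TPM and FPKM (pseudocount 1 or 0.1, at least 1 in 2 libraries), other scalings and filters, the replicate number as a block, a fit without 5 ribosomal RNA genes, and each library left out. The test was checked on simulated data. RPM values were turned into reads by each library's value of 1 read, within 0.05 of a whole number for 100.0% of values. Positions, strands and promoters are RefSeq's (GRCm38.p6, which is mm10).

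Members and lists were chosen with earlier results of these data known. Named beside the 10 genes were, of each list, the 3 with the highest mean TPM and the one with the smallest unadjusted p, the nearest gene in level, and family genes. Setd2, Cebpe and Prg2 were named after their values were seen.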

Additional observations from a re-analysis of the deposited data

How the results depend on the processing

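The log2 changes of the 10 genes under 15 alternatives gave 150 values, of which 148 kept their direction. The other 2 were Cd177, at 0.011 in limma on log2(TPM + 1) and 0.011 on log2(TPM + 0.1). The number of granule genes past the threshold was 0 with DESeq2, other scalings, TPM and FPKM, 1 with no filter on low counts, and 0 to 3 with 1 library left out. Over all genes, against 13 in edgeR, it was 8 with DESeq2, 149 with no filter, 7 at 10 CPM in 2 libraries, 7 on log2(TPM + 1), 8 on log2(TPM + 0.1), 7 on log2(FPKM + 1), 3 without 5 ribosomal RNA genes, and 9 to 74 with 1 library left out. With the replicate number as a block 55 genes passed and 0 granule genes. Differences between the first and second libraries correlated at 0.01 over 7629 genes, so the numbers are only shared. The summed level of the 10 genes in exRNaseA over mock libraries was 0.989 on TPM, 0.981 on CPM and 0.979 on FPKM, and 0.983 to 0.995 with 1 library left out. The secondary to primary ratio in exRNaseA over mock libraries was 0.968, with 0.973 on CPM, 0.942 with Mpo, Elane, Prtn3 and Ctsg only, and 0.964 to 0.972 with 1 library left out. Chosen after seeing the data, sequences of 20 or more bases gave Ngp a WGA to input ratio of 44.1 with the input at its floor of 3 reads. The causes were not tested. With 2 libraries per group an exact permutation test of a single value cannot go below 0.333, and small RNA has 1 library per group.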
